A study of Mus musculus with 4 samples.

Results

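The 10 genes Id1, Id2, Id3, Id4, Smad6, Smad7, Bambi, Skil, Tgfbi and Ltbp1 are known transcriptional targets or regulators of bone morphogenetic protein (BMP) and transforming growth factor beta (TGF-beta) signalling. They were taken by symbol from a written list, 10 of the 30907 features counted, and all 10 had UMIs (unique molecular identifiers, 1 per captured RNA molecule) in each of 4 single-cell libraries from 2 mouse tracheas. In the recipient of basal cells derived from embryonic stem cells (iBCs), the iBC recipient, 192 days after transplantation, the 1st library held GFP-positive donor-derived cells and the 2nd held GFP-negative endogenous cells; both carry the strain label 129 X1/S1. In the BC recipient, which received primary basal cells (BCs), 69 days after transplantation, the 3rd library held donor-derived cells and the 4th held endogenous cells, with the strain label C57BL/6. Both adult wild type recipients had received 2% polidocanol, a detergent that strips the airway lining, 5 hours before 6000000 cells were instilled, so the endogenous cells also come from injured tracheas. All libraries were sorted for the live-cell dye Calcein Blue after pronase digestion. Each group is 1 library from 1 animal, and donor cell kind, time, strain and animal differ together between the recipients, so their parts cannot be told apart.

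BMP and TGF-beta ligands bind pairs of serine/threonine kinase receptors that phosphorylate SMAD proteins, which enter the nucleus with SMAD4 and switch target genes on or off. The ID genes are classical BMP targets; ID proteins bind basic helix-loop-helix (bHLH) factors and keep them off DNA. SMAD6, SMAD7, BAMBI and SKIL are feedback inhibitors, TGFBI is a secreted matrix protein induced by TGF-beta, and LTBP1 tethers latent TGF-beta in the matrix. In the airway, low SMAD activity is known to favour basal cell proliferation and higher activity to accompany differentiation.

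Stretches before the start sites of Id4, Tgfbi and Ltbp1 are shown because these 3 genes carried large differences in basal cells of the iBC recipient, Id4 lower and the other two higher in donor cells. They begin 250 bases before the RefSeq start (build GRCm38.p6) and run 5′ to 3′ on the gene's strand, at chr13:48260866-48261115 (plus strand) for Id4, chr13:56609336-56609522 (plus strand) for Tgfbi and chr17:75005279-75005528 (plus strand) for Ltbp1. The Tgfbi stretch is 187 bases long, since it stops where the GENCODE gene begins, and Ltbp1 is shown at the more upstream of 2 starts. Capitals mark the SMAD half-site CAGAC or its reverse GTCTG, and the GC-rich SMAD motif GGCGCC.
Id4: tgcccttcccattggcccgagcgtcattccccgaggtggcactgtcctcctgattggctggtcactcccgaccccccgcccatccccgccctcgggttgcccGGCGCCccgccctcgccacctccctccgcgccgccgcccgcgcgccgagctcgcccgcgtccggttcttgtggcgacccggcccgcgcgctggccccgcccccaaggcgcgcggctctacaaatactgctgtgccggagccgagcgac
Tgfbi: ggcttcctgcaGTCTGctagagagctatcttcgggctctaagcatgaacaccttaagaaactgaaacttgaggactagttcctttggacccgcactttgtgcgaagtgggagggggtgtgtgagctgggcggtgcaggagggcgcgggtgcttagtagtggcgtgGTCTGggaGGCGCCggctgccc
Ltbp1: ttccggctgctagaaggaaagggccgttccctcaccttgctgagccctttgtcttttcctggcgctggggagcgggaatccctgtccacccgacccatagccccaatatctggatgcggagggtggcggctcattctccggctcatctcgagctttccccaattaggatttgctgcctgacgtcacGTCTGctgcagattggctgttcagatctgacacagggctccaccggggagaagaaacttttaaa
Id4 held 1 GGCGCC, 148 bases before the RefSeq start, and no CAGAC on either strand. Tgfbi held both motifs, GGCGCC at 77 bases and the half-site at 239 and 85 bases. Ltbp1 held the half-site at 64 bases and no GGCGCC. The half-site occurs in 42.2% and GGCGCC in 9.59% of all 32851 stretches of 250 bases in the table, and the matches shown do not overlap each other. A further motif searched on both strands, the SMAD palindrome GTCTAGAC, is present in 0.167% of all stretches and in none of the 6 members with an entry (Id2, Id3, Id4, Smad6, Tgfbi and Ltbp1). These matches describe the letters only, and no binding was measured.

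In GENCODE coordinates all 10 genes are protein coding and lie at chr2:152736251-152737410 (Id1), chr12:25093799-25097140 (Id2), chr4:136143497-136145755 (Id3), chr13:48261228-48266026 (Id4), chr9:63953076-64022059 (Smad6), chr18:75367529-75395935 (Smad7), chr18:3507923-3516404 (Bambi), chr3:31095058-31122577 (Skil), chr13:56609523-56639562 (Tgfbi) and chr17:75005568-75392512 (Ltbp1). Both annotated genes that overlap Id4 on the other strand had at most 4 UMIs in all.

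The 4 libraries held 21504563 to 26625123 UMIs and 6784 barcodes, of which 6542 cells were kept; at most 1 barcode was shared by any pair of libraries. A UMI of the EGFP reporter was found in 758 of 1576 iBC donor cells (48.1%) against 1 of 1807 endogenous cells (0.0553%) of that recipient, and in 1785 of 1805 primary donor cells (98.9%) against 29 of 1354 endogenous cells (2.14%). Cells were assigned to classes by marker scores that hold none of the 10 genes. The basal class had 673 iBC donor and 796 iBC-recipient endogenous cells, and 1195 primary donor and 661 BC-recipient endogenous cells. The secretory class had 376 and 555 cells, and 293 and 285 cells, and the ciliated class 268 and 363 cells, and 159 and 191 cells, in the same order. A further 222 iBC donor cells passed no gate, against 40, 36 and 54 in the 3 other libraries. The iBC donor library also had more cells within 0.2 of a gate's limit (126 basal and 59 secretory cells, against at most 42 and 6 elsewhere), and a median secretory score of 2.75 in its secretory class, against 3.79 to 4.16 in the others. The part of these gaps in the results was not tested, but a stricter gate and classes from clusters are reported below.

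Levels are counts per 1000000 of a class's summed UMIs (CPM). For each pair of libraries a gene counts as measured at a mean of at least 5 CPM and 20 UMIs, and as higher or lower when log2 of (CPM + 5) differs by at least 1.5-fold and the exact Poisson 95% interval of the ratio excludes 1. These intervals cover counting error only; with 1 library per group there is no test and no p-value for any donor or recipient comparison. Intervals given after a fold are those of the CPM ratio.

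In basal cells of the iBC recipient, 6 of 10 measured members differed between donor and endogenous cells, where 12.9% of all measured genes did (7.39% higher and 5.46% lower). Id1, Id3, Tgfbi and Ltbp1 were higher in donor cells and Id4 and Bambi were lower. In secretory cells 5 of 7 measured members differed (18.9% of all genes, 14.1% higher and 4.81% lower), with Id1, Id2 and Id3 higher and Id4 and Bambi lower. In ciliated cells 4 of 7 differed (16.5% of all genes, 8.82% higher and 7.67% lower), with the same 3 ID genes higher and Id4 lower. The median log2 difference of the measured members was 0.33, 0.34 and 0.22 in basal, secretory and ciliated cells, beside 0.11, 0.26 and 0.08 over all measured genes. The 12 secretory markers summed to 12110 CPM in basal iBC donor cells against 26530 CPM in basal endogenous cells, with none at 0 in either, and their part in the basal differences was not tested.

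The same comparison in the BC recipient gave 1 of 9 measured members in basal cells (Tgfbi, higher in donor cells, where 1.67% of all genes were called, 0.669% higher and 1% lower), 2 of 8 in secretory cells (Id1 and Id3, both higher; 1.79% of all genes, 0.965% higher and 0.83% lower) and 2 of 6 in ciliated cells (Id1 and Id2, both higher; 2.46% of all genes, 1.41% higher and 1.05% lower). Every call in that recipient was higher in donor cells. The members' medians there were 0.30, 0.16 and 0.44 on the log2 scale, and those of all genes 0.03, 0.06 and -0.03. Secretory markers in its basal cells summed to 41740 CPM in donor and 46490 CPM in endogenous cells.

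**Figure D1:**
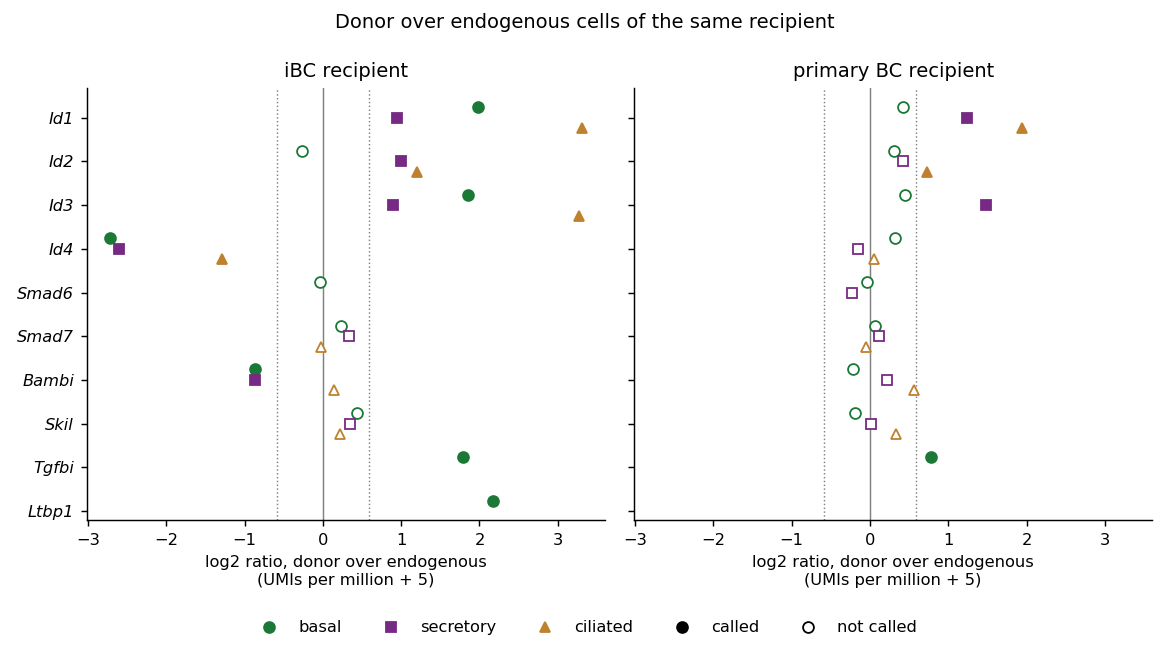
Log2 ratio of donor over endogenous cells of the same recipient, on the scale of CPM + 5, for each member (rows) and class (marker shape); filled markers are called, open ones are measured and not called, and dotted lines mark 1.5-fold. In the iBC recipient Id1 and Id3 lie to the right and Id4 to the left in all 3 classes, while Smad7 and Skil stay inside the dotted lines in both recipients.

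Id1, the ID gene with the most UMIs in basal cells of the iBC recipient, was at 356 CPM in basal iBC donor cells and 86.0 CPM in endogenous cells of that recipient, against 115 CPM in primary donor cells and 84.8 CPM in their endogenous counterparts. The basal iBC donor library stood above the 3 others, and both endogenous libraries were nearly level. The fold of donor over endogenous was 4.13 (95% interval 3.77 to 4.54) in the iBC recipient. It was 1.35 (1.24 to 1.48) in the BC recipient, which was not called. In ciliated cells Id1 was at 202 CPM in iBC donor cells against 15.9 CPM in endogenous cells, and at 19.4 CPM in primary donor cells against 1.34 CPM, from 5 UMIs, in endogenous cells. The ciliated folds were 12.7 (9.92 to 16.5) and 14.5 (5.84 to 46.3), at levels that differed by 10.4-fold (7.92 to 13.97) between the donor libraries. The fold in the BC recipient rested on 55 UMIs in 11 of 159 donor cells and 5 UMIs in 5 of 191 endogenous cells. In secretory cells Id1 was at 98.6 CPM in iBC donor and 48.6 CPM in endogenous cells, and at 120 CPM in primary donor and 47.6 CPM in endogenous cells; folds were 2.03 (1.795 to 2.29) and 2.51 (2.21 to 2.86). Id1 was therefore called higher in donor cells in 5 of the 6 pairs of class and recipient.

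Id3, a close relative of Id1 that often responds with it, was at 36.6 CPM in basal iBC donor cells and 6.46 CPM in endogenous cells, and at 21.4 CPM in primary donor and 14.4 CPM in endogenous cells. In secretory cells it was at 8.58 CPM in iBC donor cells against 2.32 CPM in endogenous cells, and at 29.5 CPM in primary donor cells against 7.30 CPM in endogenous cells. In ciliated cells the values were 95.8 CPM in iBC donor cells against 5.46 CPM in endogenous cells, and 5.28 CPM in primary donor cells against 0.54 CPM in endogenous cells. Ciliated iBC donor cells thus had the highest Id3 level of the 12 sums of class and library, while the 3 other ciliated sums were at 5.46 CPM or lower. The ciliated fold was 17.5 (11.6 to 27.8) in the iBC recipient; the pair from the BC recipient was too low to count as measured. The secretory fold in the iBC recipient, 3.71 (2.21 to 6.44), rested on 57 UMIs in donor and 21 UMIs in endogenous cells, and under the stricter gate Id3 no longer counted as measured there, with a log2 difference of 0.29.

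Id2, an ID gene also prominent in immune cells, followed another order. In basal cells its levels were 27.6 CPM in iBC donor and 34.4 CPM in endogenous cells, and 40.2 CPM in primary donor and 31.7 CPM in endogenous cells, with no call in either recipient. In secretory cells they were 55.8 CPM in iBC donor cells against 25.6 CPM, and 25.4 CPM in primary donor cells against 17.6 CPM. In ciliated cells they were 71.9 CPM in iBC donor cells against 28.4 CPM, and 16.2 CPM in primary donor cells against 7.77 CPM. The iBC donor library was thus the lowest in basal cells and the highest in the other 2 classes. The fold of donor over endogenous was 2.18 (1.85 to 2.58) in secretory and 2.53 (2.04 to 3.16) in ciliated cells of the iBC recipient, and 2.09 (1.28 to 3.445) in ciliated cells of the BC recipient.

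Id4, the ID family member that in other tissues can oppose the other 3, was low in iBC donor cells. Basal cells had 4.11 CPM in the iBC donor library (31 UMIs) and 54.8 CPM in the endogenous library (348 UMIs), against 116 CPM in primary donor and 91.8 CPM in BC-recipient endogenous cells. The level was 13.4-fold lower (9.23 to 19.95) in basal iBC donor cells than in their endogenous counterparts. In secretory cells no Id4 UMI was found among 6644810 UMIs of 376 iBC donor cells, which allows up to 0.555 CPM by the exact interval. The level was 25.5 CPM in endogenous cells, 56.5 CPM in primary donor and 63.3 CPM in BC-recipient endogenous cells. By the exact interval of the ratio, secretory iBC donor cells were at least 45.5-fold lower than endogenous cells of the same trachea. Ciliated cells kept more, 23.1 CPM in iBC donor cells against 63.7 CPM in endogenous cells, 2.76-fold lower (2.16 to 3.57), with 84.2 CPM in primary donor and 81.1 CPM in BC-recipient endogenous cells. Id4 was called in no class of the BC recipient. The basal log2 difference was -2.72 in the iBC recipient and 0.32 in the BC recipient; with 1 library each, the difference between recipients was not tested. Endogenous cells of the iBC recipient were also lower than those of the BC recipient, by 1.67-fold (1.47 to 1.90) in basal and 2.49-fold (2.12 to 2.93) in secretory cells.

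**Figure D2:**
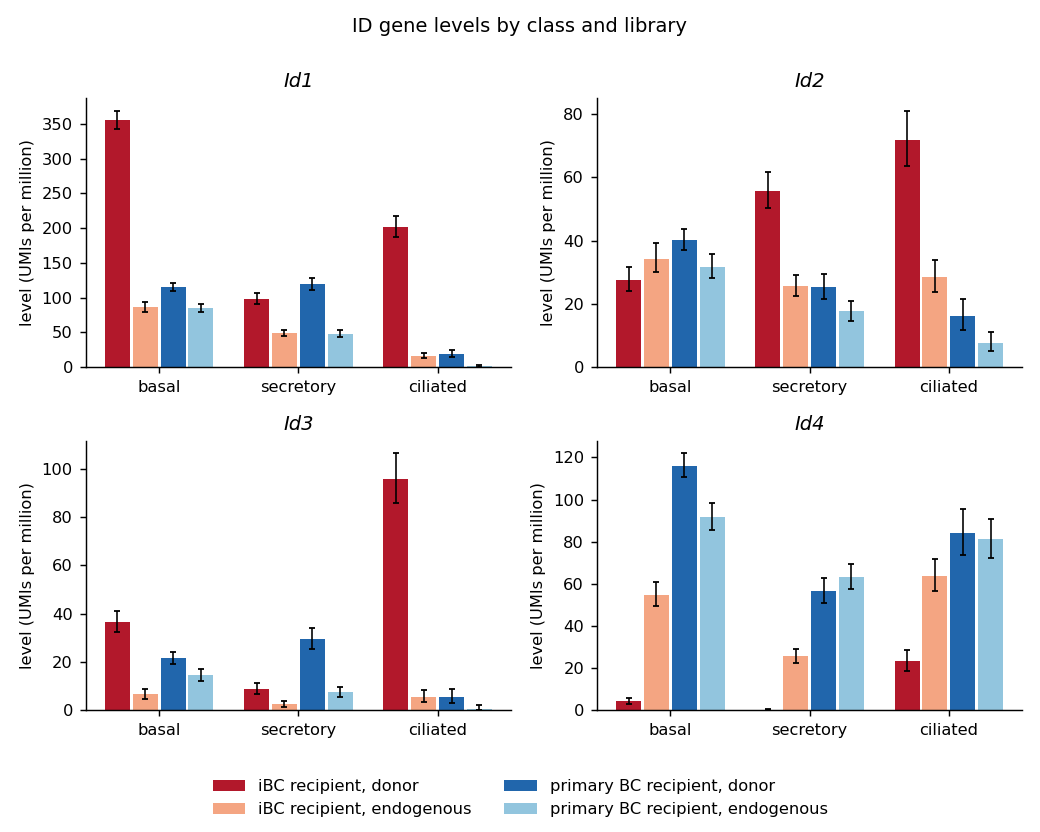
Levels of Id1 to Id4 in CPM of the class sum, by class (groups of bars) and library (colours); error bars are exact Poisson 95% intervals, which cover counting error only. Id1 and Id3 of ciliated iBC donor cells (202 and 95.8 CPM) stand far above the 3 other ciliated bars, and Id4 bars of the iBC donor library are the shortest in all 3 classes.

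Within the ID family the make-up of the UMIs differed between libraries. Id1 to Id4 together reached 424 CPM in basal iBC donor cells and 182 CPM in endogenous cells of that recipient, against 293 CPM in primary donor and 223 CPM in BC-recipient endogenous cells. Id4 made up 0.969% of the family's UMIs in basal iBC donor cells (exact binomial interval 0.659% to 1.37%) and 30.2% (27.5% to 32.9%) in endogenous cells; in the BC recipient the shares were 39.7% (38.2% to 41.2%) in donor and 41.2% (39.0% to 43.4%) in endogenous cells, whose intervals overlap. In secretory cells the share was 0 of 1083 UMIs in iBC donor cells, which allows up to 0.34%, against 24.97% in endogenous cells. It was 24.5% in primary donor against 46.6% in endogenous cells. In ciliated cells it was 5.87% in iBC donor against 56.1% in endogenous cells, and 67.3% in primary donor against 89.4% in endogenous cells. The Id4 share was thus lower in donor than in endogenous cells in both recipients in secretory and ciliated cells, beyond counting error. A share also depends on the other ID genes. In the BC recipient the Id4 level itself was not called in either class (secretory 56.5 against 63.3 CPM, ciliated 84.2 against 81.1 CPM). Id1 was called higher in donor cells of both classes there. In basal cells the intervals overlapped in the BC recipient, and the difference between recipients was not tested.

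**Figure D3:**
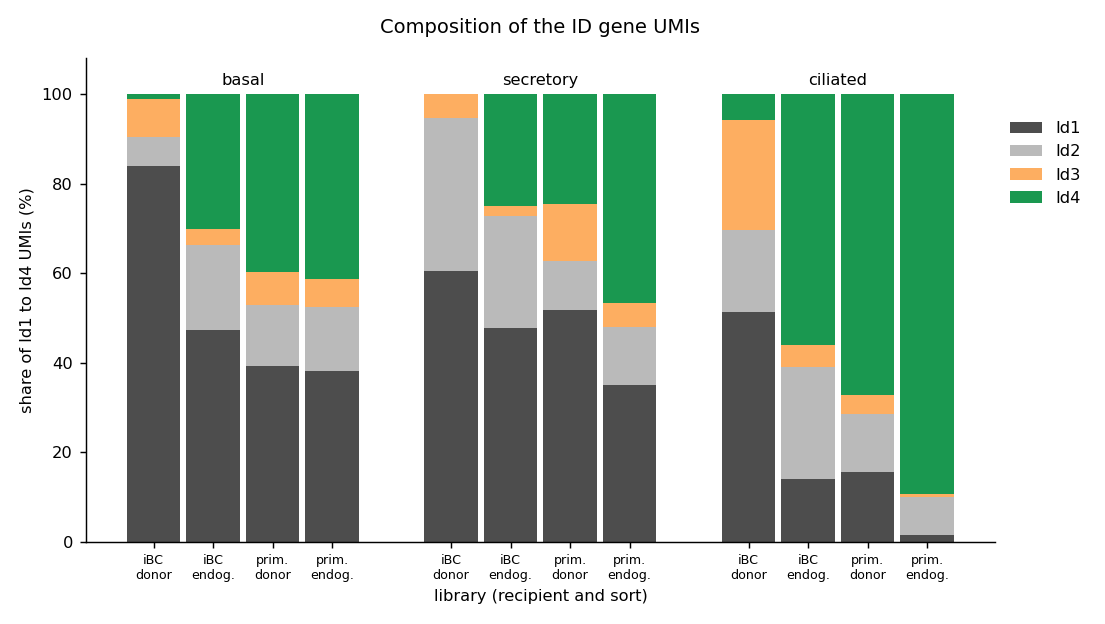
Share of each ID gene among the UMIs of Id1 to Id4 together, in percent, for each class and library (donor left of endogenous within a recipient). The Id4 segment is 0.969% of the bar in basal iBC donor cells and 89.4% in ciliated endogenous cells of the BC recipient.

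For Id1 in basal and ciliated cells and Id4 in basal cells, shares of cells ran in the direction of the levels. To compare cells of different depth, each cell was thinned to 5000 UMIs, which left out 15 and 52 basal cells of the iBC recipient (donor and endogenous) and 12 and 2 of the BC recipient. An Id1 UMI was then found in 63.7% of basal iBC donor cells against 18.5% of endogenous cells (79.5% and 24.9% without thinning), and in 25.02% of primary donor against 18.2% of endogenous cells (35.5% and 29.8% without thinning). In ciliated cells the thinned shares for Id1 were 33.3% in iBC donor cells against 2.59% in endogenous cells, and 5.03% in primary donor cells against 0 of 191 endogenous cells. Without thinning they were 51.5% in iBC donor cells against 4.96% in endogenous cells, and 6.92% in primary donor cells against 2.62% in endogenous cells, 5 of which held an Id1 UMI. Id4 UMIs were found in 4 of 658 thinned basal iBC donor cells (0.608%), against 19.6% of endogenous cells, 38.9% of primary donor and 31.7% of BC-recipient endogenous cells. In secretory cells the thinned Id1 shares were 23.1% (18.9% to 27.7%) in iBC donor and 16.45% (13.4% to 19.9%) in endogenous cells, with overlapping intervals. They were 30.7% (25.5% to 36.35%) in primary donor and 15.4% (11.45% to 20.2%) in BC-recipient endogenous cells. Ciliated Skil of the BC recipient ran against its uncalled level, with 5.66% of donor and 10.5% of endogenous cells at 29.6 and 22.5 CPM.

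Id3 was found more often in basal cells that also held an Id1 UMI, beyond counting error over cells, in all 4 libraries; cells of 1 library are not replicates. In thinned basal cells Id3 was found in 15.04% of iBC donor cells with an Id1 UMI (interval 11.75% to 18.8%) and 7.53% of those without (4.52% to 11.6%). In endogenous cells of that recipient the shares were 7.25% of cells with and 0.495% of cells without Id1. In the BC recipient they were 14.2% with and 2.59% without Id1 in donor cells, and 13.3% with and 1.48% without Id1 in endogenous cells. Id4 showed no such pairing, with 23.2% and 18.8% in iBC-recipient endogenous cells with and without Id1, 40.5% and 38.3% in primary donor cells and 32.5% and 31.5% in BC-recipient endogenous cells, all with overlapping intervals. In basal iBC donor cells Id4 was too rare to compare, at 0.239% with and 1.26% without Id1.

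**Figure D4:**
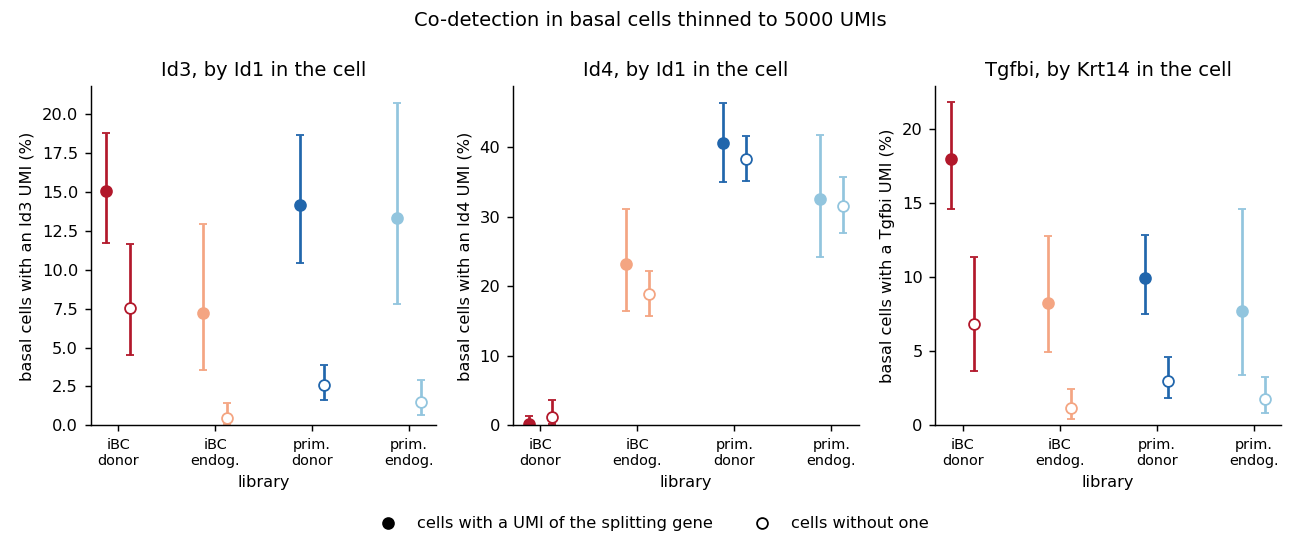
Percent of basal cells, thinned to 5000 UMIs, with an Id3, Id4 or Tgfbi UMI, split by whether the cell held a UMI of Id1 (left and middle) or Krt14 (right); bars are exact binomial 95% intervals over cells. Id3 and Tgfbi are higher in the filled points in all 4 libraries, and the Id4 points of each library overlap.

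Of the inhibitors, Smad7, which blocks both BMP and TGF-beta receptors, differed by less than 1.5-fold between donor and endogenous cells in every class. It was at 109 CPM in basal iBC donor and 92.2 CPM in endogenous cells, and at 81.1 CPM in primary donor and 77.6 CPM in endogenous cells, a fold of 1.18 (1.06 to 1.31) and 1.04 (0.948 to 1.15). Secretory cells had 43.6 CPM in iBC donor and 33.6 CPM in endogenous cells, and 26.0 CPM in primary donor and 23.7 CPM in endogenous cells. Ciliated cells had 31.6 CPM in iBC donor and 32.3 CPM in endogenous cells, and 25.7 CPM in primary donor and 26.8 CPM in endogenous cells. None of these 6 pairs was called, and of the 3 classes basal cells were highest in all 4 libraries. Immune cells of the iBC-recipient endogenous library had more Smad7, 138 CPM from 37 UMIs. Skil, a SMAD corepressor that TGF-beta degrades and then induces, was at 59.4 CPM in basal iBC donor and 42.7 CPM in endogenous cells, and at 40.5 CPM in primary donor and 47.0 CPM in endogenous cells. Its basal folds with all cells, 1.39 (1.19 to 1.62) and 0.862 (0.758 to 0.982), lay on opposite sides of 1 without reaching 1.5-fold. In secretory and ciliated cells Skil lay between 22.5 and 40.6 CPM in all 4 libraries, with no call within a recipient. Smad6, which chiefly blocks BMP receptors, was at 9.27 CPM in basal iBC donor and 9.61 CPM in endogenous cells, and at 11.7 CPM in primary donor and 12.2 CPM in endogenous cells, with intervals of the fold from 0.675 to 1.38 and from 0.747 to 1.24.

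Bambi, a decoy receptor without kinase activity that dampens both branches, was the inhibitor that differed. Basal cells had 8.74 CPM in the iBC donor library and 20.01 CPM in the endogenous library, and 22.0 CPM in primary donor and 26.4 CPM in endogenous cells. Secretory cells had 3.61 CPM in iBC donor and 10.7 CPM in endogenous cells, and 26.9 CPM in primary donor and 22.4 CPM in endogenous cells. The iBC donor library was the lowest of 4 in both classes. The level was 2.29-fold lower (1.69 to 3.13) in basal and 2.96-fold lower (1.88 to 4.84) in secretory iBC donor cells than in endogenous cells; the second was no longer called under the stricter gate (log2 difference -0.53). Ciliated cells had 9.06 CPM in iBC donor and 7.73 CPM in endogenous cells, and 16.9 CPM in primary donor and 9.91 CPM in endogenous cells, with no call within a recipient.

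Among the basal, secretory and ciliated classes, Tgfbi and Ltbp1 were found almost only in basal cells. Tgfbi was at 40.1 CPM in basal iBC donor and 8.04 CPM in endogenous cells, and at 13.6 CPM in primary donor and 5.81 CPM in endogenous cells; it had at most 2 UMIs in any secretory or ciliated sum. Both donor libraries were above both endogenous libraries. The fold of donor over endogenous was 5.00 (3.70 to 6.86) in the iBC recipient, against 2.34 (1.71 to 3.25) in the BC recipient, and Tgfbi was the one member called in basal cells of both. Gated immune cells also held Tgfbi: the 65 gated immune cells of the BC-recipient endogenous library had 678 CPM and the 25 of the iBC-recipient endogenous library 44.8 CPM. Hillock cells, a small class described further below, had Tgfbi at 95.9 CPM in iBC donor cells (36 UMIs in 24 cells) and 10.6 CPM in endogenous cells (1 UMI in 7 cells), and at 40.0 CPM in primary donor and 32.0 CPM in BC-recipient endogenous cells, above the basal level in the 3 libraries with more than 1 UMI. In basal sums the 8 immune markers gave 13.4 CPM in iBC donor and 114 CPM in endogenous cells, and 116 CPM in both libraries of the BC recipient; Cd3e was at 0 in all 4. Without Lyz2, which secretory cells also make, the list summed to 1.46 CPM in iBC donor and 1.26 CPM in endogenous cells, and to 2.25 CPM in primary donor and 2.85 CPM in BC-recipient endogenous cells.

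Ltbp1 was at 19.1 CPM in basal iBC donor cells (144 UMIs), against 0.32 CPM (2 UMIs) in endogenous cells of that trachea, 0.65 CPM in primary donor and 0.11 CPM in BC-recipient endogenous cells. The level in iBC donor cells was 60.5-fold that of endogenous cells, with a counting interval of 16.5 to 505. Among secretory and ciliated sums its highest was 8 UMIs, in secretory iBC donor cells. Of the 6 fibroblast markers, which could mark stromal cells that also make Ltbp1, Col1a1 and Col1a2 were at 0 in all 4 basal sums. Dcn alone made up 637 CPM in basal iBC donor cells against 584 CPM in endogenous cells, and 417 CPM in primary donor against 474 CPM in endogenous cells, and was at most 7.14 CPM in the other classes.

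Within basal cells, Tgfbi was found more often with Krt14, a keratin of the basal layer that is 1 of the 12 basal markers of the gate. In thinned cells Tgfbi was found in 17.99% of basal iBC donor cells with a Krt14 UMI and 6.81% of those without, and in 8.26% and 1.14% of endogenous cells with and without Krt14. In the BC recipient the shares were 9.96% with and 3.03% without Krt14 in donor cells, and 7.69% with and 1.80% without it in endogenous cells. The intervals of cells with and without Krt14 did not overlap in any of the 4 libraries. Krt14 UMIs were found in 467 of 658 thinned basal iBC donor cells against 218 of 744 endogenous cells, and in 522 of 1183 primary donor against 104 of 659 endogenous cells, so both donor libraries held more Krt14-positive cells. The part of Krt14 in the Tgfbi difference between donor and endogenous cells was not tested. Id1 did not follow Krt14 in one direction, with 64.9% and 60.7% of iBC donor cells and 15.6% and 19.8% of endogenous cells with and without Krt14. In the BC recipient the shares were 21.46% and 27.8% of donor cells and 24.04% and 17.1% of endogenous cells.

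Because fewer than all iBC donor cells had a reporter UMI, the comparison was repeated, as a choice made after seeing the data, with donor cells that had one and endogenous cells that had none. The counts of called members were then 7, 4 and 4 in basal, secretory and ciliated cells of the iBC recipient, against 6, 5 and 4 with all cells. The basal call gained was Skil, close to the 1.5-fold limit. It was at 66.55 CPM in donor cells with a reporter UMI against 42.7 CPM in endogenous cells. Calls over all genes also became more numerous, with 862 higher and 543 lower of 9772 genes in basal, 1555 and 411 of 8848 in secretory and 990 and 845 of 10213 in ciliated cells. Inside the iBC donor library, Id1 was at 389 CPM in basal cells with and 322.5 CPM in basal cells without a reporter UMI, Id4 at 5.04 and 3.18 CPM, and Ltbp1 at 18.8 and 19.3 CPM. Ciliated cells with a reporter UMI had 263 CPM of Id1 and those without had 131 CPM. Secretory cells ran the other way, with 86.5 CPM (77.1 to 96.8) with and 112 CPM (100.7 to 124.5) without one. In each class, cells with and without a reporter UMI both had more Id1 and less Id4 than endogenous cells of that recipient.

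Between the donor libraries, 6 of 10 measured members differed in basal cells (20% of all genes, 10.3% higher and 9.76% lower in iBC donor cells). The count was 5 of 7 in secretory cells (20.6% of all genes, 10.4% higher and 10.2% lower) and 5 of 7 in ciliated cells (21%, 10.9% higher and 10.1% lower). In basal iBC donor cells Id1, Id3, Tgfbi and Ltbp1 were higher than in basal primary donor cells and Id4 and Bambi were lower, the last 2 by 28.3-fold (19.8 to 41.75) and 2.52-fold (1.92 to 3.34). In secretory cells Id3 ran the other way, 3.44-fold lower (2.55 to 4.70) in iBC donor than in primary donor cells. Id4 was at least 101-fold and Bambi 7.44-fold (4.84 to 11.9) lower, and Id2 was 2.202-fold (1.83 to 2.66) higher. Smad7 was 1.68-fold higher (1.39 to 2.04) there, a call lost under the stricter gate. In ciliated cells Id1, Id2 and Id3 were 10.4-fold, 4.44-fold (3.23 to 6.21) and 18.1-fold (10.8 to 32.7) higher. Id3 in basal cells, 1.705-fold higher (1.44 to 2.02), was not called with classes from clusters, nor was the lower Bambi of ciliated cells.

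The endogenous libraries, which share neither animal nor strain label, differed in 2 of 9 measured members in basal cells (8.67% of all genes, 3.6% higher and 5.07% lower in the iBC recipient). The count was 2 of 7 in secretory cells (11.6% of all genes, 2.68% higher and 8.94% lower) and 2 of 6 in ciliated cells (12.2%, 5.59% higher and 6.61% lower). Besides Id4, Id3 was lower in basal cells of the iBC recipient (6.46 against 14.4 CPM) and Bambi lower in secretory cells (10.7 against 22.4 CPM). In ciliated cells Id1 and Id2 were higher in the iBC recipient, at 15.9 against 1.34 CPM and 28.4 against 7.77 CPM. Basal and secretory Id1 was level between them, with folds of 1.01 (0.907 to 1.13) and 1.02 (0.885 to 1.18). These comparisons share libraries with the donor comparisons above and are not independent of them.

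Between classes, the 4 libraries serve as replicates with the library as a block. The tests therefore measure how class differences vary across 4 libraries from 2 animals. In ciliated against basal cells, 6 of 9 tested members were lower in ciliated cells and none higher by edgeR's quasi-likelihood test with Benjamini-Hochberg adjustment, where 68% of all 12446 tested genes passed (33.7% higher and 34.3% lower). Smad7 had a log2 fold change of -1.69 ± 0.11 (SE; adjusted p = 5.6e-07), Smad6 one of -1.79 ± 0.25 (adjusted p = 0.00011) and Skil one of -0.84 ± 0.12 (adjusted p = 0.00011). Tgfbi had -6.68 ± 0.64 (adjusted p = 8.5e-06) by edgeR, a fitted value that depends on the few ciliated UMIs. The SEs of edgeR values are back-calculated, as the absolute log2 fold change over the square root of the test's F statistic. Id1 had -2.19 ± 0.64 (adjusted p = 0.012) and Bambi -0.85 ± 0.33 (adjusted p = 0.044). The Id1 value was not called without the iBC-recipient endogenous library (-2.12, adjusted p = 0.066) or without the primary donor library (-2.11, adjusted p = 0.053), and Bambi only passed without the iBC donor library among the 4 libraries left out in turn. Bambi was also not called by DESeq2 (adjusted p = 0.065), with classes from clusters (adjusted p = 0.051), with the stricter gate (adjusted p = 0.074) or without the library block (adjusted p = 0.17), and Id1 was not called without the block (-1.49, adjusted p = 0.22). Ltbp1 was below the count filter.

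Leaving out the iBC donor library brought 8 of 9 members below the threshold, all lower in ciliated cells, where 4294 of all 12615 genes in that fit were higher and 4317 lower. Id2 was then -1.15 (adjusted p = 0.0024) and Id3 -1.84 (adjusted p = 0.027) by the same test, against -0.52 (adjusted p = 0.29) and -0.24 (adjusted p = 0.81) with all 4 libraries. In the iBC donor library both genes were above the basal level in ciliated cells, and in the 3 other libraries both were below it.

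In secretory against basal cells, 3 of 9 tested members were lower in secretory cells and none higher (41.7% of all genes passed, 21.6% higher and 20.1% lower). They were Smad7 (-0.89 ± 0.11, adjusted p = 0.00015), Tgfbi (-6.40 ± 0.59, adjusted p = 3.6e-05) and Smad6 (-0.60 ± 0.21, adjusted p = 0.046) by edgeR; Smad6 lost its call by DESeq2 (adjusted p = 0.052) and when any 1 library was left out. In ciliated against secretory cells, 5 of 9 were lower in ciliated cells and none higher (61.9% of all genes passed, 29.5% higher and 32.4% lower). These were Skil (-0.95 ± 0.12, adjusted p = 6.6e-05), Smad7 (-0.79 ± 0.11, adjusted p = 0.00019), Smad6 (-1.19 ± 0.26, adjusted p = 0.0030), Id1 (-2.09 ± 0.67, adjusted p = 0.020) and Bambi (-1.07 ± 0.34, adjusted p = 0.020) by edgeR. The last 2 were called without the iBC donor library and by no other fit on 3 libraries, which gave 7 and 3 called members, and neither was called without the block (adjusted p = 0.38 for Id1 and 0.078 for Bambi). In all 3 contrasts Id4 was not called, with log2 fold changes between -0.32 and 0.63 and SEs of 0.52 to 0.55.

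Some rarer classes had ID levels of their own. The hillock class was scored on 8 markers with Krt13 and Krt4 among them. Its Id1 level was 370 CPM in 24 iBC donor cells and 476 CPM in 7 endogenous cells. In the BC recipient it was 226 CPM in 87 donor and 221 CPM in 37 endogenous cells. The 476 CPM rested on 45 UMIs in 3 of the 7 cells. In the 3 libraries other than iBC donor, the hillock level was above the basal, secretory and ciliated levels. In the iBC donor library it was close to the basal level of 356 CPM. Immune cells had Id2 at 863 CPM (25 cells of the iBC-recipient endogenous library) and 497 CPM (65 cells of the BC-recipient endogenous library), far above any epithelial sum, while Id1 had 0 and 3 UMIs there.

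The genes whose log2 level was most like a member's over the 12 sums of 3 classes and 4 libraries were sought among 6298 genes of at least 20 CPM, with Pearson's r as a description; the sums share libraries and depth. Id1 was most like Tle1 (r = 0.936), Mycl (0.906) and Araf (0.906), and Id4 was most like Akr1e1 (0.959), Sobp (0.953) and Eid1 (0.951). Smad7 was most like Nr1d2, Lamb3 and Sparc (0.991, 0.991 and 0.989), and Skil like Errfi1, Vamp8 and Ccdc107 (0.963, 0.962 and 0.961). Id2 was most like Ammecr1, Palmd and Sox21 (0.941, 0.854 and 0.839), and the other 5 members were below 20 CPM.

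Another 110 genes of the pathway were set beside the members. In the iBC recipient 10 of 68 measured genes were higher and 12 lower in basal donor cells, 9 and 3 of 51 in secretory donor cells and 8 and 9 of 54 in ciliated donor cells, which is 32.4%, 23.5% and 31.5% called, beside 12.9%, 18.9% and 16.5% of all genes. In the BC recipient 2 and 0 of 68, 1 and 1 of 51, and 2 and 0 of 49 were higher and lower, which is 2.94%, 3.92% and 4.08% called, beside 1.67%, 1.79% and 2.46% of all genes.

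In the iBC recipient 1 of 4 measured BMP ligands was called in basal cells, higher in donor cells, beside 12.9% of all genes. The count was 2 of 2 in secretory cells (18.9% of all genes) and 3 of 3 in ciliated cells (16.5%), all higher. Among these, Bmp5 was at 73.7 CPM in basal iBC donor cells and 31.2 CPM in endogenous cells. Bmp5 was also called higher in secretory (55.5 against 24.0 CPM) and ciliated cells (56.8 against 21.2 CPM). Bmp4 was at 60.95 CPM in secretory iBC donor cells and 27.8 CPM in endogenous cells, and at 39.8 CPM in ciliated iBC donor cells and 7.73 CPM in endogenous cells. The endogenous libraries also differed from each other. Secretory Bmp4 was higher in the iBC recipient (27.8 against 1.10 CPM, from 8 UMIs, in the BC recipient). Basal Bmp5 was lower there (31.2 against 54.7 CPM). The BC recipient had 4, 1 and 1 BMP ligands measured in basal, secretory and ciliated cells and none called, where 1.67% to 2.46% of all genes were, and the recipients were not tested against each other. Tgfb2, a TGF-beta ligand, was at 72.1 CPM in basal iBC donor cells against 25.5 CPM in endogenous cells, and at 13.9 CPM in basal primary donor cells against 7.18 CPM in endogenous cells. The activin subunits Inhba and Inhbb were lower in ciliated iBC donor cells, at 4.67 against 18.4 CPM and 7.96 against 38.0 CPM in endogenous cells.

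Among the receptors, 12 were measured in basal cells; the co-receptor Tgfbr3 was lower in iBC donor cells (3.31 against 29.9 CPM in endogenous cells) and the BMP co-receptor Rgmb higher (18.3 against 8.35 CPM). None of the 7 measured SMAD signal transducers was called in any class of either recipient. Among all measured genes, the called share by class ran from 12.9% to 18.9% with iBCs, and from 1.67% to 2.46% with primary BCs. With only 7 genes, having none called is near those shares and does not set this list apart. Tob1, an inhibitor of SMAD-driven transcription, was called higher in iBC donor cells in all 3 classes, at 87.2 against 45.5 CPM in basal, 91.35 against 43.0 CPM in secretory and 249 against 159.5 CPM in ciliated endogenous cells. Of 7 latency and activation genes measured in basal cells, Mmp14 was higher in iBC donor cells and Ltbp4, Itgb8 and Thbs1 were lower (12.9% of all genes called). Ltbp4, a relative of Ltbp1, ran opposite to it, at 150.2 CPM in iBC donor against 315 CPM in endogenous cells. In secretory cells Itgb6 and Thbs1 were higher of 6 measured (18.9% of all genes called). Itgb6, a subunit of an integrin that frees TGF-beta, was at 27.4 CPM in secretory iBC donor cells against 3.97 CPM in endogenous cells. In ciliated cells Thbs1 and Mmp14 were lower of 5 measured (16.5% of all genes called).

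Other TGF-beta targets were split in basal cells, with 4 higher and 4 lower of 14 measured in the iBC recipient. Sphk1 was at 23.45 CPM in iBC donor against 3.47 CPM in endogenous cells, while Ctgf was at 201 against 353 CPM and Tgm2 at 164 against 376 CPM. Basal Ctgf was at 59.7 CPM in primary donor and 49.7 CPM in BC-recipient endogenous cells. It was thus 3.37-fold (3.095 to 3.675) higher in iBC donor than in primary donor cells. Between the endogenous libraries it was 7.105-fold (6.41 to 7.89) higher in the iBC recipient. Cdkn2b, a cell cycle inhibitor induced by TGF-beta, was higher in donor cells of both recipients, at 69.45 against 12.7 CPM in ciliated cells of the iBC recipient and 45.1 against 13.9 CPM in those of the BC recipient, and at 16.25 against 3.86 CPM and 17.0 against 4.54 CPM in their secretory cells. The BMP and Notch target Hey1 was at 1.05 CPM in secretory iBC donor cells against 23.3 CPM in endogenous cells. Tcf4, 1 of 3 bHLH partners of ID proteins measured, was lower in basal iBC donor cells (43.45 against 74.8 CPM in endogenous cells) and in secretory ones (19.4 against 52.5 CPM).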

How the data were processed

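The authors deposited raw UMI counts of 10x Chromium libraries. The submitters' processing notes name the tools Cell Ranger, STARsolo and Seurat and the build GRCm38; versions, the tool that made the counts and the use of strand are not given in the sources used here. These deposited counts were not rescaled before analysis. Cells with fewer than 500 genes or over 20% mitochondrial UMIs were left out, as were 82 doublets called by Scrublet in scanpy 1.11.5 (9 to 44 per library).

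Each cell was scored by its mean ln(1 + counts per 10000) over a class's markers, with basal, secretory and ciliated limits of 0.8, 2.2 and 1.0 set with the data at hand; clusters on 2000 variable genes, with the members left out, were the alternative. UMIs were summed per class and library. Class contrasts used edgeR 4.0.16 in R 4.3.3 on these sums, with DESeq2 1.42.0 as an alternative. The edgeR contrasts and the ratio calls between libraries were tested on simulated data, and DESeq2 was not. The 4 libraries come from 2 animals and differ in group. With the library as a block, these p-values measure how class differences vary across the libraries. Shares have exact Clopper-Pearson intervals, and limits for a count of 0 are bounds of the exact intervals. Positions are from GENCODE M21, in which 30843 of 30907 features were found; upstream sequences are from RefSeq.

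All 10 members are described, and from each pathway list up to 4 called genes of at least 10 CPM with the largest differences could be named. The members, lists and tests were chosen with earlier results of these data known. Alternatives were TMM scaling, clusters, a stricter gate, doublets kept, equal cell weights, no filter, a pseudocount of 1 CPM, and the reporter match, which was added after seeing the data. The uninjured control trachea that the labels name was not analysed here.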

Additional observations from a re-analysis of the deposited data

Results flagged for a closer look

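In all, 3 differences in basal cells ran in opposite directions in the 2 recipients, with both counting intervals excluding 1. The difference between the recipients was not tested, since each pair is 1 donor and 1 endogenous library. Id4 had a log2 ratio of donor over endogenous of -2.72 in the iBC recipient and 0.32 in the BC recipient. Id2 had -0.27 in the iBC recipient and 0.30 in the BC recipient. Skil had 0.43 in the iBC recipient and -0.19 in the BC recipient. Of these, Id4 in the iBC recipient alone passed 1.5-fold.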

How the results depend on the processing

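Of 42 member calls between pairs of libraries, 42 were kept with TMM scaling, doublets kept, equal cell weights, no filter and a pseudocount of 1 CPM, 40 with clusters, 40 with the reporter match and 39 with the stricter gate; 37 were kept under all 8. The lost calls were Id3 (log2 0.29 by the stricter gate, 0.47 by the reporter match) and Bambi (-0.53) in secretory cells of iBC donor against endogenous cells, and, between donor libraries, basal Id3 (0.58), secretory Smad7 (0.54) and ciliated Bambi (-0.57 by clusters, -0.39 by the reporter match). The count of called members became 3 in secretory iBC donor against endogenous cells under the stricter gate, 2 in basal primary donor against endogenous cells by clusters, and 4 in secretory cells between the endogenous libraries with TMM; the cause was not tested. TMM took away a shift of all genes, so that calls over all genes in iBC donor against endogenous cells became 540 higher and 667 lower in basal (722 and 534 before), 562 and 660 in secretory (1237 and 423) and 699 and 929 in ciliated cells (901 and 783). For the other pairs past 10 points, secretory cells gave 71 and 93 (86 and 74) in the BC recipient and 400 and 424 (235 and 784) between endogenous libraries.

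Without the replicate block (the library, which the classes share), 3 members were called in ciliated against secretory cells, as in 3 of the fits that left out 1 library, whose range was 3 to 7. Uncalled values changed sign: for ciliated against basal cells Id3 (0.37 without the block, 0.34 with the stricter gate, -1.84 to 0.34 with 1 library left out) and Id4 (-0.15 without the block, -0.21 to 0.70 with 1 library left out); for secretory against basal cells Id1 (0.12) and Id3 (0.58) with the stricter gate and, with 1 library left out, Id1 -0.39 to 0.11, Id2 -0.023 to 0.51, Id3 -0.82 to 0.21, Bambi -0.030 to 0.39; for ciliated against secretory cells Id3 (0.51 without the block, -2.05 to 0.88 with 1 library left out) and Tgfbi (-1.03 to 0.21 with 1 library left out). Depth limits Smad6, Ltbp1 and ciliated Id3, which had fewer than 20 UMIs in several sums.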
